A study of Homo sapiens with 16 samples.

Results

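The olfactory receptor windows were the deposited TSS windows whose gene symbol has the form of an olfactory receptor, that is the letters OR, a family number, subfamily letters and a member number. Of 21857 windows, 385 met this rule. They carried 383 gene symbols on 18 chromosomes, and OR2A9P and OR2A1 had more than 1 window each. Class I receptors (families 51, 52, 55 and 56) held 52 windows and class II receptors held 333, and 14 windows belonged to symbols that end in P, the mark of a pseudogene.

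The windows were measured in GM12878, a B-lymphoblastoid cell line (B cells immortalised with Epstein-Barr virus), after 20, 40 or 60 min of stimulation with heat-killed Salmonella typhimurium (HKST), and in untreated cells of the same line. Chromatin was crosslinked with formaldehyde, and nuclei were digested with light (20 U) or heavy (200 U) micrococcal nuclease (MNase), and DNA from 2 kb around TSSs was enriched by sequence capture before paired sequencing. The 16 samples (2 replicates for each time and digest) were deposited as 8 tables, each of which pools both replicates, so no spread between replicates can be given and no test was run. Each value is the number of fragment centers of 140 to 200 bp in 60 bp windows, scaled by the authors for the depth of the table (rpm), for 200 bins of 10 bp on the sense strand. All cells were of 1 line and no other cell type was compared.

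The untreated light, 40 min and 60 min tables hold all 385 olfactory receptor windows. The untreated heavy table ends earlier and holds 116 of them, and 84 were in heavy and 62 in light digests at 20 min. Comparisons of 40 and 60 min HKST with untreated cells therefore used 116 olfactory receptor windows of 16260 windows, and comparisons at 20 min used 62 of 2801. The windows at 20 min lie on chromosomes 1, 10 and 11 only. Of the 116, 80 had the TSS at an ATG and 10 were class I, against 317 and 52 of all 385. Light tables stood for 9.43 to 10.5 M fragments and heavy tables for 3.27 to 7.04 M, with the 60 min heavy table the deepest of the heavy digests.

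Olfactory receptors are G protein-coupled receptors of the nasal sensory neurons, and most are encoded by a single uninterrupted coding exon. Their genes lie in large tandem clusters. A sensory neuron expresses very few of them, and in other tissues, B cells included, most are silent and packed in heterochromatin. MNase digests linker DNA and prefers A+T-rich sequence, so a fragment that light digestion releases and heavy digestion destroys scores as sensitive, and a fragment that needs or survives heavy digestion scores as resistant.

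The label of these windows as promoters was checked against the sequence. In 317 of 385 olfactory receptor windows (82.3%) the deposited TSS was the A of an ATG in the genome, against 5.22% of all windows. A GENCODE start codon lay at the TSS in 277 (71.9%), against 3.76% of all windows. Conversely, a GENCODE transcript began within 50 bp of the TSS in 58.2% of the olfactory receptor windows and in 79.9% of all windows. Of the 277 windows at a start codon, 131 (47.3%) belonged to a gene with a GENCODE transcript that starts more than 1000 bp upstream, beyond the window, and 135 (48.7%) to a gene with none starting 50 bp or more upstream. The stop codon lay inside the window in 264 of 275 cases, at a median of 941 bp downstream. Most of these windows are thus centered on the start of the coding sequence, with nearly the whole coding exon in the downstream 1000 bp, and need not hold the promoter.

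The sequences around that point are shown for the windows with the most untreated light fragments in the 5 clusters of at least 20 windows, because they show what the values are centered on. Each runs from 100 bp upstream, 5′ to 3′ on the sense strand of GRCh37, and the capitals mark the ATG at the deposited TSS. They lie at chr1:248366270-248366419 (OR2M3), chr11:6220354-6220503 (OR52W1), chr11:57982117-57982266 (OR1S1), chr11:123900230-123900379 (OR10G8) and chr14:20665395-20665544 (OR11G2), all on the plus strand.
OR2M3: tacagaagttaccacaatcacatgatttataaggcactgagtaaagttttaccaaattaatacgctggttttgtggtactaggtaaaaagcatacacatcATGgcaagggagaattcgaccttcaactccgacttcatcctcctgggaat
OR52W1: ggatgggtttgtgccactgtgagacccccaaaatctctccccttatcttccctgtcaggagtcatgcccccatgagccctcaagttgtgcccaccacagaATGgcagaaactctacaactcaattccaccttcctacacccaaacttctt
OR1S1: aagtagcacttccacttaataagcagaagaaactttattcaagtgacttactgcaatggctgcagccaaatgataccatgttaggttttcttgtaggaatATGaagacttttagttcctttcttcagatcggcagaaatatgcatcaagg
OR10G8: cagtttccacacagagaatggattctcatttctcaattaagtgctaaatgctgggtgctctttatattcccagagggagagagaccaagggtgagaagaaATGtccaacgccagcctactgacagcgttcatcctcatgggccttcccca
OR11G2: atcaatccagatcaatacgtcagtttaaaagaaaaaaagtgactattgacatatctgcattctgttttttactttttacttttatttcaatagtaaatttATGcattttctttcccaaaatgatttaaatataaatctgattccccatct

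The upstream 100 bp of these 5 windows held 34% G+C in OR2M3, 56% in OR52W1, 37% in OR1S1, 43% in OR10G8 and 24% in OR11G2. Over all 385 windows the median G+C content was 36% in the upstream 1000 bp and 46% in the downstream 1000 bp. The medians of all windows were 52% upstream and 57.1% downstream. Between 250 bp upstream and 50 bp downstream, searched on both strands, TAATTA (a homeodomain core) occurred in 71 olfactory receptor windows (18.4%), against 4.05% of all windows. TATAAA occurred in 122 (31.7%), against 10.7% of all windows, and TCCCNNGGG (the core of the site of EBF proteins) in 5 (1.3%), against 9.42%. These are matches of letters in windows of different base composition, not sites.

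Bins without a value were examined next, because near-identical paralogs limit what unique alignment can assign. The bins without a value were the same in every table. They made up 8.21% of the bins of olfactory receptor windows and 10.8% of those of all windows. Over the upstream 1000 bp the shares were 12.8% and 13.6%, and over the downstream 1000 bp 3.60% and 7.99%. The median olfactory receptor window lacked 5.0% of its bins, and 32 of 385 (8.31%) lacked more than 20%, against 16.2% of all windows. OR1M1 (40% of bins, chromosome 19), OR5C1 (38.5%, chromosome 9) and OR7G3 (38%, chromosome 19) lacked the most.

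Sequence that recurs elsewhere in the genome was found both in bins without a value and in bins at 0. Of the 31-base words in bins without a value, 42.2% had another exact copy in GRCh37, against 12.6% in valued bins. Of the valued bins, those at 0 in the untreated light table held 40.6% recurring words and those above 0 held 8.56%. The 26 windows with at least 50% recurring words had a median of 76.5% of valued bins at 0 and a median untreated light level of 0.196 rpm. The 175 windows under 5% had 5.41% of bins at 0 and 1.36 rpm. The share of bins without a value did not rise steadily with the share of recurring words. It was 4.15% in the windows under 5%, 11.97% at 5 to 20%, 12.4% at 20 to 50% and 7.65% in the 26 windows. What leaves a bin without a value was not tested. Of those 26 windows, 8 lay in the chromosome 1 cluster at 247.6 to 248.8 Mb, 5 in the chromosome 7 cluster and 3 in the chromosome 17 cluster. Fewer nucleosomes and fewer alignable reads cannot be told apart in these windows.

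No fragment was recorded in any table in 4 windows, which allows up to 3 fragments per table. These were OR4F5 on chromosome 1 (90.8% recurring words), both windows of OR2A9P on chromosome 7 (100%) and OR2T11 on chromosome 1. OR2T11 had no recurring word (0%) and lacked 3.5% of its bins. Across chromosome clusters (runs of windows with gaps of at most 1 Mb), the chromosome 19 clusters lacked the most bins among clusters of more than 1 window, 28.2% at 8.8 to 9.4 Mb and 20.2% at 14.9 to 16.1 Mb. The chromosome 1 cluster at 158.4 to 159.5 Mb lacked 5.31% and the chromosome 11 cluster at 123.6 to 124.4 Mb 5.52%.

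Nucleosome fragments stepped up at the deposited TSS. In the 116 windows with both untreated digests, the median light level was 1.64 rpm in the 200 bp downstream of the TSS and 0.619 rpm in the 200 bp upstream. The heavy level was 1.20 rpm downstream and 0.363 rpm upstream of it. All windows had 0.589 and 0.504 rpm in light digests over the same stretches. Over the 1000 bp on each side, light plus heavy was higher downstream in 92 of 112 valued olfactory receptor windows, with a median log2 difference of 1.21, against 0.037 over all windows. It was over 1 (log2) in 65 (58%), against 15.0% of all windows. At 60 min, with all 385 windows present, the median was 1.25 over 366 valued windows, and 227 (62%) were over 1. The step was present whether or not the TSS lay at an ATG, with untreated medians of 1.31 in 78 windows at an ATG and 0.92 in 34 others. Taste, vomeronasal and trace amine receptors had 0.64, with 21 of 22 windows above 0.

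**Figure D1:**
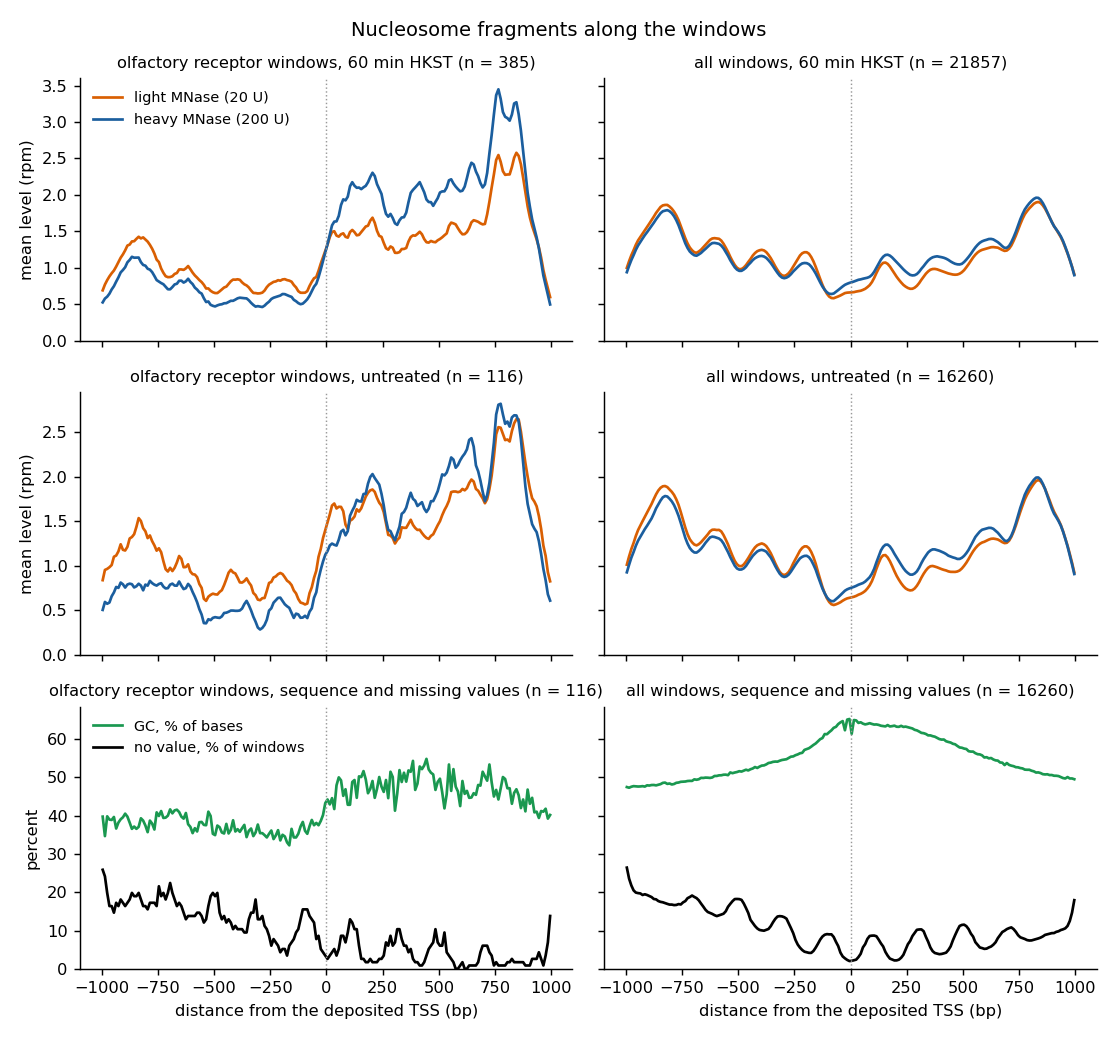
Mean level (rpm) of light (20 U) and heavy (200 U) MNase fragments by distance from the deposited TSS (bp) in olfactory receptor windows (left) and all windows (right), at 60 min HKST (top) and untreated (middle), with G+C content and the share of windows without a value below. In olfactory receptor windows the level steps up at the TSS together with G+C content, while in all windows peaks flank a trough near the TSS.

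In olfactory receptor windows a trough of 0.995 rpm (untreated light plus heavy) lay at -100 bp, and the peak upstream of it, at -210 bp, reached 1.54 rpm. In all windows, peaks at -210 bp (2.32 rpm) and at 150 bp (2.34 rpm) flanked a trough of 1.17 rpm at -80 bp. Among the upstream peaks and troughs of the olfactory receptor windows the level lay between 0.919 rpm at -300 bp and 2.27 rpm at -840 bp. Downstream it reached 3.85 rpm at 200 bp, 5.30 rpm at 770 bp and 5.29 rpm at 840 bp. All windows were high toward both edges, with 3.66 rpm at -830 bp and 3.94 rpm at 830 bp. How the capture probes are placed within each window is not given in the sources used here, and their part in these levels was not tested.

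Sensitivity to MNase, the log2 of light divided by heavy after 0.118 rpm (0.1 of the mean untreated value) was added to each, followed the same border. In untreated cells the median ratio of the olfactory receptor windows was 0.73 over the upstream 1000 bp (108 valued windows) and -0.030 over the downstream 1000 bp (112 valued). All windows had medians of 0.19 upstream and -0.049 downstream. Set beside other windows of like upstream G+C content, the upstream ratio was 0.88 against 0.88 below 35%. It was 0.77 against 0.66 at 35 to 40% and 0.43 against 0.53 at 40 to 45%, so the upstream medians lay closer together. At like downstream G+C content the downstream ratio was 1.12 in 7 olfactory receptor windows against 0.67 at 35 to 40%. It was 0.31 against 0.43 at 40 to 45% and -0.16 against 0.25 at 45 to 50%. At 50 to 55% it was -0.38 against 0.13, and at 55 to 60% -0.72 in 5 olfactory receptor windows against -0.029. In these ranges the downstream medians lay further apart than without matching. Within windows, the downstream ratio was lower than the upstream ratio in 96 of 108 (88.9%), with a median difference of -0.66, against 66.1% and -0.24 for all windows. It was lower by more than 0.5 in 67 (62%), against 32.7% of all windows. The difference is not particular to olfactory receptors, since keratins and keratin-associated proteins had a median of -0.83, with 97 of 107 below 0 and 76 lower by more than 0.5. Over the full 2 kb the ratio was 0.19 in olfactory receptor windows and 0.067 in all windows. The value of 0.19 became 0.12 with a pseudocount of 0.5 of the mean, 0.12 relative to the median of all windows and 0.11 from summed fragments. The quartiles of the olfactory receptor windows (-0.085 and 0.47) overlap those of all windows (-0.30 and 0.37).

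At 60 min HKST the 361 windows valued upstream had a median ratio of 0.51 and the 378 valued downstream -0.31, against 0.15 and -0.056 for all windows. The downstream ratio was lower in 334 of 359 windows (93%), against 63.8% of all windows. The upstream DNA was thus recovered more from the light digest and the downstream DNA more from the heavy digest. The border was present whether or not the TSS lay at an ATG. The median downstream minus upstream difference was -0.74 in 293 windows at an ATG and -0.85 in 66 others.

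**Figure D2:**
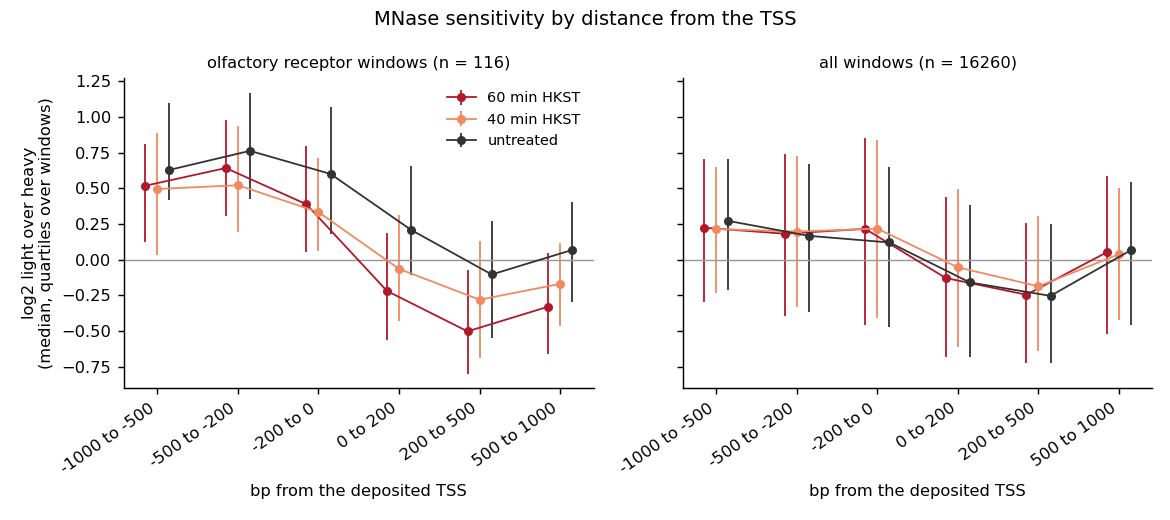
Median log2 ratio of light over heavy (points) with quartiles over windows (bars) in 6 stretches from the TSS (bp), at 60 and 40 min HKST and in untreated cells, for the 116 olfactory receptor windows (left) and 16260 windows (right) in the same tables. In the olfactory receptor windows the untreated points (0.76 between -500 and -200 bp, -0.10 between 200 and 500 bp) lie above the HKST points in all 6 stretches, while over the 2 kb the medians of all windows are 0.070, 0.062 and 0.067 at 60 min, 40 min and untreated.

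Against this baseline, the olfactory receptor windows were less sensitive at each HKST time. At 20 min, on chromosomes 1, 10 and 11, the median 2 kb ratio was -0.14 with HKST and 0.19 in untreated cells (60 valued windows). It was lower in 54 and higher in 6, and the median change was -0.31, against 0.045 over all 2783 valued windows. At 40 min it was -0.012, against 0.19 in untreated cells. It was lower in 94 of 112 windows and higher in 18, and the median change was -0.20, against 0.017 over all windows. At 60 min it was -0.12, against 0.19 in untreated cells. It was lower in 104 of 112 windows and higher in 8, and the median change was -0.31, against 0.0061 over all windows. All 3 times share the same untreated tables, so a deviation of those tables would enter each comparison alike.

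No olfactory receptor window had a ratio higher by more than 0.5 (log2) at any of the 3 times, whereas 4.89%, 2.68% and 2.67% of all windows did at 20, 40 and 60 min. Lower by more than 0.5 were 11 of 60 olfactory receptor windows at 20 min (18.3%), against 3.63% of all windows. At 40 min 14 of 112 were (12.5%), against 2.57%, and at 60 min 21 of 112 (18.8%), against 2.06%. A pseudocount of 0.5 in place of 0.1 of the mean level leaves 3, 2 and 4 such windows at 20, 40 and 60 min. The exact 95% counting interval of the change lay wholly below 0 in 27 of 60 olfactory receptor windows at 20 min (45%), against 9.46% of all windows. It did in 24 of 112 at 40 min (21.4%), against 5.26%, and in 54 of 112 at 60 min (48.2%), against 9.32%. It lay wholly above 0 in 0, 1 and 0 olfactory receptor windows at 20, 40 and 60 min, against 10.5%, 5.92% and 8.07% of all windows. These intervals cover counting error only.

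Summed over the windows, the fragments gave changes of -0.34 (95% counting interval -0.39 to -0.30) at 20 min, -0.21 (-0.24 to -0.17) at 40 min and -0.32 (-0.35 to -0.29) at 60 min. The same sums over all windows gave 0.045, 0.011 and 0.018. Against 40 min, which leaves the untreated tables out and uses all 385 windows, the 60 min sum changed by -0.095 (-0.11 to -0.077), and that over all windows by -0.0021. The ratio was lower at 60 min than at 40 min in 259 of 380 windows. The share of all windows that were lower is not given here, so this count stands without a background. Past 0.5 were 8 lower (2.11%), against 1.98% of all windows, and none higher, against 2.17%. The share lower by more than 0.5 thus lay near that of all windows.

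**Figure D3:**
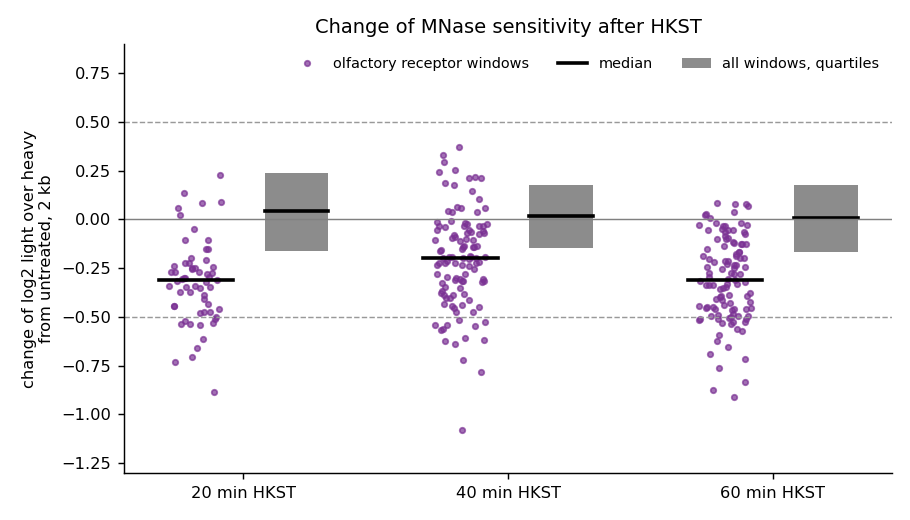
Change of the 2 kb log2 ratio of light over heavy against untreated cells at 20, 40 and 60 min HKST for each olfactory receptor window (dots; n = 60, 112 and 112) beside the median and quartiles of all windows (grey), with dashed lines at a change of 0.5 either way. The dots lie mostly below 0 at each time, with medians of -0.31, -0.20 and -0.31, and none lies above the upper line.

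Over the 2 kb, both digests took part in the change. At 60 min the light level of the olfactory receptor windows changed by a median of -0.093 (log2) against untreated cells and was lower in 279 of 385 windows, and the heavy level changed by 0.19 and was higher in 98 of 116. At 40 min the light level changed by -0.10 (lower in 314 of 385) and the heavy level by 0.070 (higher in 75 of 116). At 20 min the light level changed by -0.12 (lower in 49 of 62) and the heavy level by 0.17 (higher in 67 of 84). The medians of all windows lay between -0.028 and 0.022 in these 6 comparisons. The change of the ratio at 60 min had a median of -0.24 over the upstream 1000 bp (lower in 83 of 108) and -0.34 over the downstream 1000 bp (lower in 107 of 112). From summed fragments this change was -0.28 upstream and -0.36 downstream, against 0.012 and 0.021 over all windows. Over the upstream 1000 bp the light level at 60 min changed by 0.041 (higher in 211 of 368) and the heavy level by 0.30 (higher in 93 of 112). All windows had 0.0094 in light (higher in 10758 of 20909) and 0.011 in heavy digests (higher in 8064 of 15595). At 20 min the upstream values were -0.0053 in light and 0.35 in heavy digests, against 0.032 and 0.015 over all windows. At 40 min they were -0.12 and 0.095, against -0.0035 and -0.0048. Upstream, the lower ratio at 20 and 60 min thus came with a higher heavy level and not with a lower light level. The extent of digestion in each tube and the time of stimulation cannot be told apart in this design.

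Base composition moved with these values. Across windows, a description over sites that share libraries, the 60 min 2 kb ratio ran against G+C content with r = -0.68 (rho = -0.64, n = 380) in olfactory receptor windows and r = -0.42 (rho = -0.41) in all windows. Olfactory receptor windows had a median G+C content of 41.3% over the 2 kb, against 55% in all windows, so windows of like G+C content were set side by side. At 35 to 40% G+C the 60 min ratio was 0.099 in 125 olfactory receptor windows, against 0.40 in other windows. At 40 to 45% it was -0.15 in 159, against 0.17, and at 45 to 50% it was -0.41 in 57, against 0.12. Untreated cells had the same order, with 0.51 against 0.64, 0.19 against 0.39 and -0.11 against 0.27 in these 3 ranges.

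The change with HKST was also present in other windows of low G+C content. At 35 to 40% G+C the change at 60 min had a median of -0.39 in 30 olfactory receptor windows and -0.22 in 701 other windows. At 40 to 45% it was -0.33 in 48 and -0.17 in 1035, and at 45 to 50% it was -0.17 in 26 and -0.023 in 1989. At 40 min the olfactory receptor windows were closer to the others, with -0.24 against -0.21, -0.22 against -0.17 and -0.10 against -0.030. At 20 min the values were -0.39 against -0.34, -0.31 against -0.26 and -0.26 against -0.047. Other windows of 60% G+C or more had medians of 0.13, 0.072 and 0.025 at 20, 40 and 60 min, so the direction of the change differed with G+C content over the whole table. The part of G+C content in the change of the olfactory receptor windows was not tested beyond these strata.

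**Figure D4:**
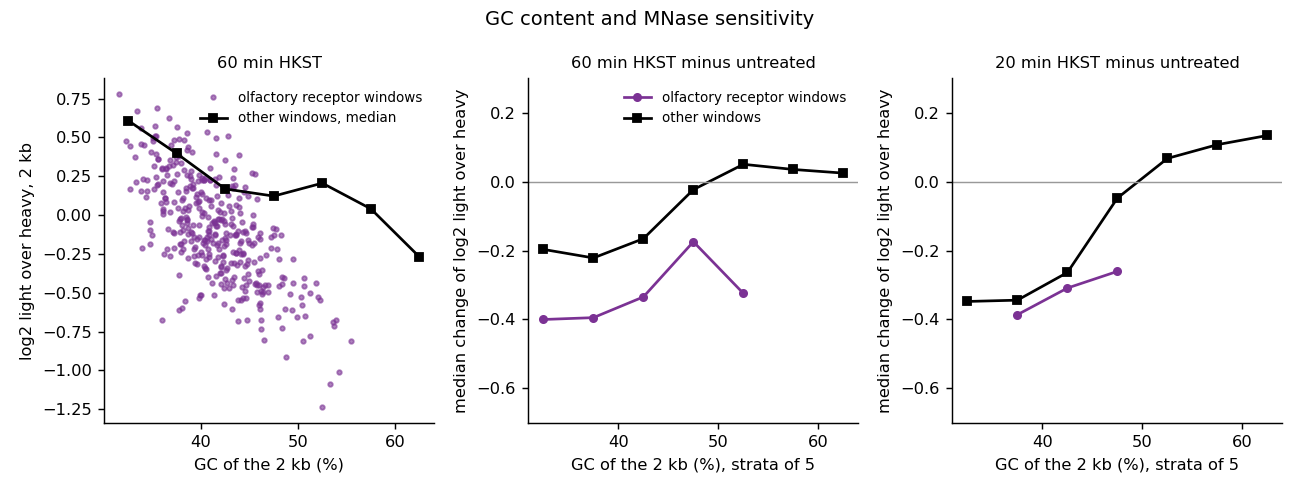
Left, 2 kb log2 ratio of light over heavy at 60 min HKST against G+C content (%) for each olfactory receptor window (dots) with the medians of other windows by G+C range. Middle and right, median change of the ratio against untreated cells at 60 and 20 min by G+C range for olfactory receptor and other windows, where at 40 to 45% G+C the medians are -0.33 and -0.17 at 60 min and -0.31 and -0.26 at 20 min.

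The step in level at the TSS had the opposite relation to base composition in the 2 sets. At 60 min the downstream over upstream level ran with the downstream minus upstream G+C content in olfactory receptor windows (r = 0.52, rho = 0.50, n = 366) and against it in all windows (r = -0.22, rho = -0.14). The downstream minus upstream difference of the ratio ran against it in both (r = -0.61 and r = -0.55).

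By position, 346 of the 385 windows lay in 16 clusters of at least 5, and 166 lay on chromosome 11. The median 60 min ratio of these clusters ran between 0.42 and -0.40, and it tended to be higher where G+C content was lower. The cluster on chromosome 3 at 97.8 to 98.2 Mb (10 windows, 35.5% G+C) had the highest, 0.42. The chromosome 12 cluster at 55.5 to 56 Mb (15 windows, 37.2% G+C) followed with 0.20. The largest clusters lay between these ends, with 0.043 in the 68 windows at 55.1 to 59.5 Mb of chromosome 11, -0.14 in the 65 windows at 4.4 to 8.0 Mb, and -0.25 in the 42 windows at 247.6 to 248.8 Mb of chromosome 1. The chromosome 7 cluster at 142.7 to 144 Mb (43.7% G+C, 36.1% recurring words) had the lowest, -0.40 over 14 valued windows. Single windows of 1 cluster differed widely. In the chromosome 1 cluster at 247.6 to 248.8 Mb the 60 min ratio of single windows ran between -1.24 and 0.51.

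The change at 60 min was negative in the median of each of the 16 clusters, 3 of which rest on a single window. In the 3 clusters with more than 10 windows in both conditions, the summed fragments changed by -0.37 (-0.45 to -0.30) at 247.6 to 248.8 Mb of chromosome 1, where 19 of 21 windows were lower. They changed by -0.34 (-0.42 to -0.27) at 4.4 to 8.0 Mb of chromosome 11 (16 of 17 lower) and by -0.31 (-0.39 to -0.23) at 55.1 to 59.5 Mb (15 of 17 lower). These 3 intervals overlap. The chromosome 6 cluster at 29 to 29.6 Mb, within the major histocompatibility region, had the least negative median, -0.13 over 7 windows, and a summed change of -0.24 (-0.37 to -0.11). By summed fragments the chromosome 11 cluster at 123.6 to 124.4 Mb was less negative, -0.14 (-0.27 to -0.0046) over 4 windows, and the interval of the chromosome 19 cluster at 8.8 to 9.4 Mb spanned 0, -0.15 (-0.38 to 0.084) over 3.

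**Figure D5:**
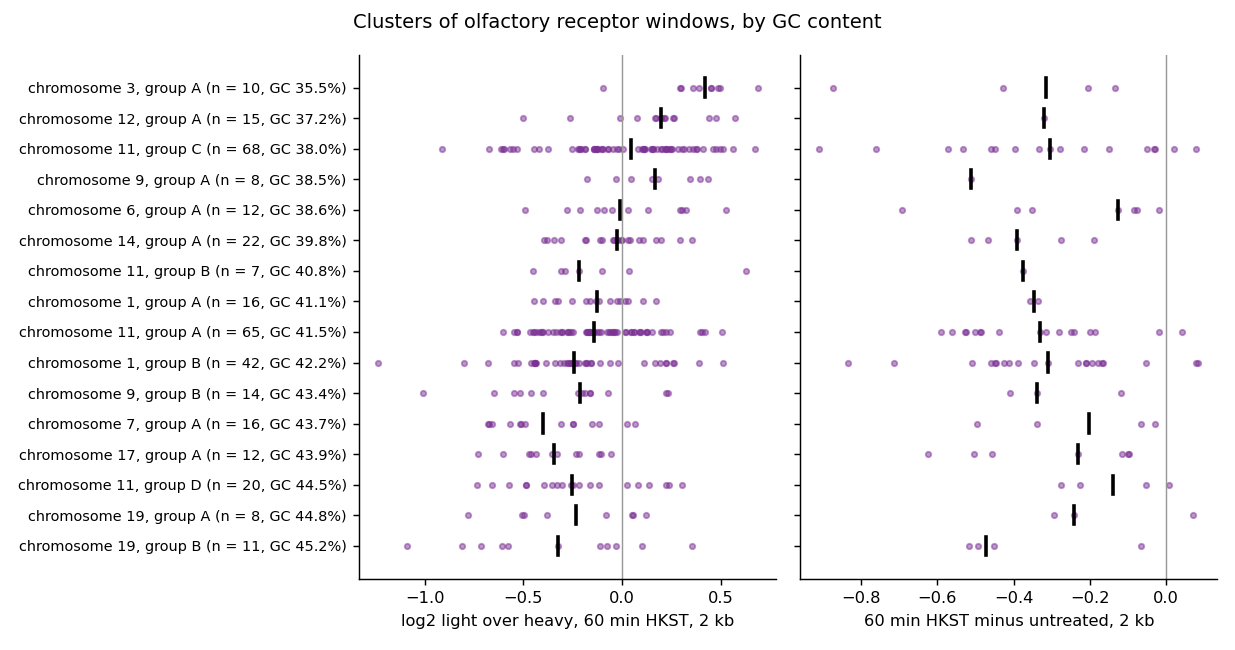
The 16 clusters of at least 5 olfactory receptor windows, ordered by median G+C content with the lowest at the top and lettered along each chromosome. Left, 2 kb log2 ratio of light over heavy at 60 min HKST, and right, its change against untreated cells, with a dot for each window and a bar at the cluster median, which runs between 0.42 and -0.40 on the left and is below 0 in each cluster on the right.

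Class I receptors, the family group known from fish and thought to detect water-soluble odorants, all lay in the chromosome 11 cluster at 4.4 to 8.0 Mb. Their median change at 60 min was -0.30 (9 of 10 lower), and that of class II receptors was -0.31 (95 of 102 lower). The summed changes were -0.24 (-0.34 to -0.14) in class I and -0.33 (-0.36 to -0.29) in class II, with intervals that overlap. The 60 min ratio was -0.091 in 52 class I and -0.11 in 328 class II windows. Windows centered on an ATG and those that were not had close median changes at 60 min, -0.31 in 76 and -0.31 in 36.

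The 189 windows of other genes inside the clusters had a higher G+C content (median 50.6%) and a smaller change at 60 min, with a median of -0.055 (lower in 97 of 155). Their summed change was -0.080 (-0.11 to -0.054). Among other chemosensory receptors (taste, vomeronasal and trace amine receptors; 39.4% G+C, 50% at an ATG), the median change at 60 min was -0.28 over 23 windows in both conditions, with 4 of 23 lower by more than 0.5, against 2.06% of all windows, and none higher, against 2.67%. In TAS2R43 and TAS2R50, bitter taste receptors, the changes were -0.69 (-1.40 to -0.34) and -0.67 (-1.28 to -0.35). TAS1R1, a subunit of the umami receptor, had 0.23 (-0.13 to 0.64).

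Genes that act with the receptors were set beside them. Olfactory signaling genes (17 windows in both conditions, 58.7% G+C) had a median change of -0.026. Of the 17, 1 was higher and 1 lower by more than 0.5, against 2.67% and 2.06% of all windows. The higher was ADCY3, the adenylyl cyclase of olfactory cilia, with 0.51 (0.20 to 0.93). The lower was ANO2, a calcium-activated chloride channel, with -0.54 (-0.91 to -0.25). Factors of receptor choice (11 windows) had a median of -0.077, with CBX5, which encodes the heterochromatin protein HP1 alpha, at 0.64 (0.19 to 1.35). CBX5 was the only 1 of the 11 higher by more than 0.5, against 2.67% of all windows. None was lower by more than 0.5, against 2.06%. Keratins and keratin-associated proteins, another clustered set of genes, had -0.15 over 110 windows (47.6% G+C). Of the 110, 2 were lower by more than 0.5, near the 2.06% of all windows. None was higher by more than 0.5, against 2.67%.

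Single windows are given next. Most were picked for the largest changes or extreme ratios, so they are not typical of the medians. OR8U8 (chromosome 11, TSS at 56143100) had light levels of 1.12, 0.963, 1.01 and 0.902 rpm and heavy levels of 0.646, 1.11, 0.965 and 1.06 rpm in untreated cells and at 20, 40 and 60 min. The light levels were lower and the heavy levels higher at all 3 HKST times than in untreated cells. Its change was -0.88 (-1.44 to -0.58) at 20 min, -0.64 (-1.19 to -0.27) at 40 min and -0.91 (-1.44 to -0.63) at 60 min, and it rests on 300 light and 246 heavy fragments at 60 min and 361 light and 109 heavy fragments in untreated cells.

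OR5T1, in the same cluster, had light levels of 1.09, 1.15, 1.05 and 0.994 rpm and heavy levels of 0.541, 1.03, 0.768 and 0.911 rpm over the same 4 conditions. Here the heavy level set the change, which was -0.76 (-1.37 to -0.42) at 60 min. OR2L3 on chromosome 1 had light levels of 1.93, 1.54, 1.51 and 1.74 rpm and heavy levels of 1.35, 1.77, 1.56 and 2.06 rpm, and its change at 60 min was -0.71 (-1.06 to -0.46). All 3 are class II receptors.

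OR5H14 on chromosome 3, absent from the 20 min tables, had light levels of 1.37, 1.10 and 1.25 rpm and heavy levels of 0.50, 0.948 and 0.921 rpm in untreated cells and at 40 and 60 min. It had the highest untreated ratio, 1.27, and changed by -1.08 (-1.74 to -0.74) at 40 min and -0.87 (-1.46 to -0.57) at 60 min. OR2W1 on chromosome 6 had light levels of 1.36, 1.08 and 1.13 rpm and heavy levels of 0.777, 1.13 and 1.11 rpm, with a change of -0.69 (-1.16 to -0.40) at 60 min. In both windows, as in OR8U8, the untreated heavy level was the lowest of the heavy values. They were picked for large falls from untreated cells, a choice that favors a low untreated heavy value. OR51E2, a receptor also known from prostate, had 0.859, 0.848, 0.730 and 0.832 rpm in light and 0.367, 0.491, 0.574 and 0.549 rpm in heavy digests in untreated cells and at 20, 40 and 60 min, and changed by -0.72 (-1.49 to -0.27) at 40 min.

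At the other end, the highest changes at 60 min were small and each interval spanned 0. They were 0.085 (-0.50 to 0.71) in OR2T2, 0.077 (-0.28 to 0.46) in OR10V1, 0.072 (-0.31 to 0.47) in OR7D2, 0.040 (-0.23 to 0.31) in OR52K2 and 0.025 (-0.52 to 0.55) in OR4A5. OR2T2 holds 92.9% recurring words and rests on 94 light and 80 heavy untreated fragments. At 40 min OR5E1P, a pseudogene, had 0.37 (0.016 to 0.81), and at 60 min -0.24 (-0.58 to 0.058).

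The lowest ratios lay in windows of higher G+C content. OR2L13 (52.5% G+C, not centered on an ATG) had light levels of 0.668, 0.627, 0.802 and 0.624 rpm and heavy levels of 1.5, 1.35, 1.39 and 1.63 rpm in untreated cells and at 20, 40 and 60 min. Heavy exceeded light in each condition, and the ratio was -1.24 at 60 min and -1.04 in untreated cells. OR10G8, whose sequence is shown above, had 2.37 rpm in light and 3.24 rpm in heavy untreated digests. Of the windows with the most untreated light fragments in each cluster of at least 10, OR2M3 had the highest level, 3.51 rpm (1073 fragments), and at 60 min it had 2.99 rpm in light and 3.70 rpm in heavy digests. OR52W1, the printed window with the highest upstream G+C content, had the lowest 60 min ratio of that set, -0.55, with 2.03 rpm in light and 3.02 rpm in heavy digests. OR5H14 had the highest of the set, 0.39.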

How the data were processed

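MNase-seq of GM12878 was deposited as 8 tables of rpm values, 1 for each digest and condition. Per the submitters' processing notes, Bowtie2 2.2.2, SAMtools and bedtools were used with GRCh37 (hg19). The authors discarded reads that did not align uniquely, pooled both replicates, and deposited fragment centers (140 to 200 bp) in 60 bp windows at steps of 10 bp as rpm. One fragment enters 6 windows, so its worth in rpm was recovered from the steps of the values. Of the values checked, 100% lay within 0.05 of a step. Values of 0 and the highest values were not part of that check. Totals per table were 3.27 to 10.5 M fragments, which sets the precision of single windows.

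The values here were computed in Python 3.11.15 (numpy 2.4.6, scipy 1.17.1, pysam 0.24.0, matplotlib 3.10.9). Sensitivity was the log2 of light over heavy, each plus a pseudocount of 0.118 rpm, over windows with at least 0.5 of their bins valued and at least 1 fragment. Changes past 0.5 were counted. With both replicates pooled there was no test. Single windows have exact conditional odds ratio intervals (95%) without the pseudocount, and sums have normal intervals on the log scale. Both cover counting error only, and PCR copies are not independent molecules. The steps were tested on simulated data. Gene models were GENCODE 44 lifted to GRCh37.

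Named windows were those with the most untreated light fragments in each cluster of at least 10, the largest changes in each direction and the extreme untreated ratios (both with at least 20 light and 10 heavy fragments), the highest shares of bins without a value, and the extremes of each gene list. Windows with 0 fragments were named after their values were seen. The members and lists were chosen with earlier results of these data known. Alternatives were the pseudocount, fragment and bin minimums, centering, summing, chromosome and cluster gap.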

Additional observations from a re-analysis of the deposited data

How the results depend on the processing

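Of 99 alternatives, 66 left the value close to that reported, and no median, mean or sum changed sign. The 99 include counts of windows or clusters, which cannot change sign. Counts were called close by a loose rule. It took in 31 in place of 21 windows lower by more than 0.5 at 60 min, and 21 in place of 16 clusters with gaps of at most 0.2 Mb. They also include settings that left the same windows and the same value. With a pseudocount of 0.5 of the mean level the median changes became -0.22 at 20 min, -0.14 at 40 min and -0.22 at 60 min, with 3, 2 and 4 windows lower by more than 0.5, the untreated ratio 0.12 and the downstream step 0.99. At 0.02 of the mean the change at 60 min was -0.36 and the step was 1.26. With that pseudocount 17, 22 and 31 windows were lower by more than 0.5 at 20, 40 and 60 min. With at least 0.9 of the bins valued the untreated ratio was 0.27 and the change at 60 min -0.35. Subtracting the median of all windows gave an untreated ratio of 0.12, and summed fragments gave 0.11. The step was 1.28 with at least 20 light and 10 heavy fragments and 1.18 as a mean. Past a change of 1 were 0, 1 and 0 windows at 20, 40 and 60 min. Outside chromosome 11 the windows past 0.5 numbered 3, 9 and 12 at these times, and on chromosome 11 they numbered 5 at 40 min (median change -0.15) and 9 at 60 min, since fewer windows were counted. In alternatives chosen after seeing the data, the windows in all 8 tables gave 6 at 40 min and 12 at 60 min. Against 40 min the 60 min change was -0.10 with 8 past 0.5. The step was 1.28 with under 50% recurring words and 1.25 in the 60 min tables. No paired analysis was possible because each table pools both replicates, which also kept a replicate from being left out. Depth limits the precision of single windows. Intervals excluded 0 in 54 of 112 at 60 min, a count that depends on the size of the change as well as on depth.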
